A study of Mus musculus with 15 samples.

Results

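The genes described here are the collagen genes of the mouse, taken as every protein-coding gene of the GRCm38 annotation named Col, a number, the letter a and a number. There are 44 of them among the 33223 genes of the count tables, which hold 18312 protein-coding genes, and all 44 were found in both tables by Ensembl identifier. Bulk RNA was sequenced from the injured side of the mouse cortex 1 day after a moderate controlled cortical impact (CCI), an experimental brain injury given to the right parietal cortex. Every animal carried floxed EphA4, a receptor tyrosine kinase of the ephrin family. The control mice were EphA4f/f and are called WT, whereas the knockout mice were EphA4f/f-VeCadCreERT2 and are called KO. CreERT2 is a tamoxifen-inducible recombinase, here under the VE-cadherin promoter of endothelial cells, so the deletion concerns the endothelium and other cells keep the gene. All groups were injured, and no uninjured group was analysed here. Dissociated tissue was put over CD45 and CD31 microbeads, which hold leukocytes and endothelial cells, and the libraries come from the CD45 cells and from the flow-through of all remaining cortical cells. The comparisons ask which collagens each fraction expresses and whether KO differed from WT within a fraction.

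Collagens are trimers of chains wound into a helix, secreted into the extracellular matrix. Fibrillar collagens form the fibres of connective tissue, fibril-associated collagens sit on the surface of those fibres, and type IV collagen forms the sheet of the basement membrane, which in the brain surrounds each vessel and lies under the meninges. Chains are hydroxylated, glycosylated and folded inside the cell, trimmed by proteases outside it and cross-linked by lysyl oxidases. In healthy brain, fibrillar collagen is largely found in the meninges, the choroid plexus and around larger vessels.

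The fits used 14 of the 15 libraries, of which 4 WT and 3 KO were flow-through, and 3 WT and 4 KO were CD45. A further library carries the label flow-through WT (replicate 5) but its counts are deposited with the CD45 libraries, and it was left out. Its 906 CPM (counts scaled to a library total of 1000000) of Ptprc, the gene of CD45, compare with 0.660 to 1.22 CPM in the 7 other flow-through libraries and 805 to 1043 CPM in the 7 CD45 libraries. Total counts were 19204814 to 27270907 per flow-through library and 11574414 to 31337948 per CD45 library. Epha4 stood at 38.5 to 43.0 CPM in flow-through WT and 36.03 to 42.2 CPM in flow-through KO. In the CD45 libraries Epha4 stood at 2.699 to 2.92 CPM in WT and 1.69 to 3.54 CPM in KO. Epha4 was not called in either fraction (adjusted p = 0.849 and 0.989 by edgeR's quasi-likelihood test). These counts cover the whole gene, not the floxed part, and most cells in the libraries keep it, so they do not check the deletion. The labels name no animals, so each p-value measures spread between libraries that could be partly technical. The same mice could have given cells to both fractions.

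Collagen genes took 0.152 to 0.226% of all counts in a flow-through library and 0.0333 to 0.0551% in a CD45 library, and the ranges did not overlap. Col16a1, a fibril-associated chain, had the highest level per length in the flow-through. Its mean was 65.0 ± 9.996 RPKM (CPM per kilobase of exon; SD, n = 7), and it alone held 24.5% of the collagen CPM there. Col6a1 followed at 29.1 ± 8.49 RPKM, Col6a2 at 15.3 ± 3.97, Col3a1 at 14.8 ± 3.81, Col9a3 at 11.5 ± 2.38 and Col4a1 at 9.31 ± 1.64 RPKM (SD, n = 7 each). Col16a1 stood clear of Col6a1 by more than either SD, whereas the means from Col6a2 to Col9a3, and from Col9a3 to Col4a1, lay within an SD of their neighbours. The order depends on the length used, which counts every annotated exon, 4380 bases for Col6a1 and 8326 for Col6a2. By mean CPM, Col16a1 was followed by Col3a1, Col12a1, Col6a2 and Col6a1, at 146, 136, 127 and 127 CPM. The CD45 fraction had another order. Col4a1 led it at 17.6 ± 5.41 RPKM and Col4a2 followed at 14.9 ± 4.02, and these basement membrane chains made up 32.99% and 24.7% of its collagen CPM. The next were Col27a1 at 2.29 ± 0.250, Col15a1 at 1.85 ± 0.308, Col6a1 at 1.64 ± 0.657 and Col6a3 at 1.60 ± 0.552 RPKM (SD, n = 7 each). The step down from Col4a2 to Col27a1 was larger than either SD. From Col15a1 to Col6a3 the means lay within an SD of their neighbours. Col24a1, Col4a3, Col28a1, Col10a1 and Col19a1 were under the count filter in every comparison, and the highest value among them was 1.96 CPM, for Col4a3 in flow-through KO replicate 1.

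**Figure D1:**
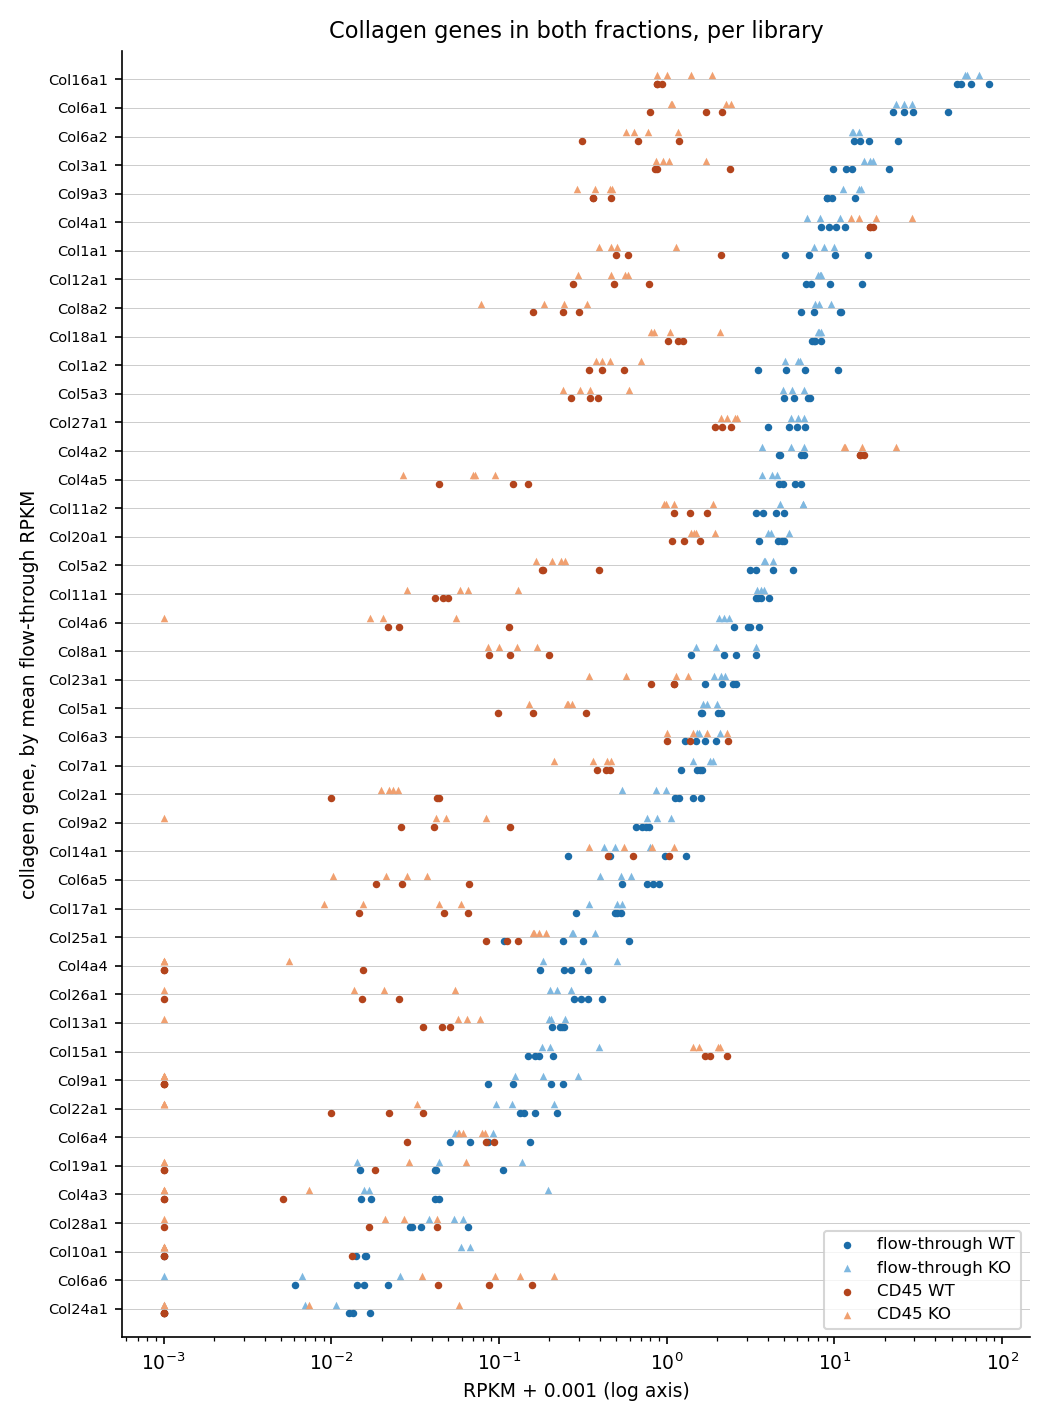
Level of each collagen gene per library, in RPKM plus 0.001 on a log axis, with genes ordered by mean flow-through level. Blue marks are flow-through libraries and orange marks CD45 libraries, with circles for WT and triangles for KO. Most genes have blue marks far to the right of orange, and Col4a1, Col4a2, Col15a1 and Col6a6 have them the other way round.

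Of the 39 collagen genes tested between the fractions, 32 were lower and 5 higher in the CD45 libraries than in the flow-through, and Col6a4 and Col14a1 were not called (adjusted p under 0.05, edgeR's quasi-likelihood test). The fractions differ in most genes: 86.1% of the 18098 genes tested were called, 44.7% lower and 41.4% higher, and 86.6% had an unadjusted p under 0.05, as did 37 of the collagen genes. The filter passed 38 collagen genes in the flow-through and 29 in CD45, and a gene that passed through 1 fraction alone had to differ, so these counts are a description. Passing in the flow-through alone were Col2a1, Col4a4, Col4a6, Col6a5, Col9a1, Col9a2, Col13a1, Col17a1, Col22a1 and Col26a1. Col6a6 passed in CD45 alone. The fraction p-values of these genes below describe them and are not support. The median log2 fold change of the 39 was -3.05, against -0.05 over all genes tested. Genes that passed in 1 fraction alone are part of this median and of the counts that follow, which are a description too. Under a stricter test against a change of 2-fold, 28 collagen genes were lower and 4 higher, where 52% of all genes were called, 30% lower and 22% higher. Fold changes use TMM scaling, which sets the fractions apart by 0.53 on the log2 scale relative to CPM, so a gene of equal CPM gets a positive fold change. With total-count scaling the median of all genes was -0.58, 32.1% of calls in place of 48.1% were higher, and 4 collagen genes were higher and 32 lower. Entering the left-out library as labelled gave 4 higher and 31 lower, and removing a GC trend gave 6 higher and 28 lower. Which cells carry each gene is not known from bulk RNA, in which fewer cells of a type and less RNA per cell cannot be told apart.

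**Figure D2:**
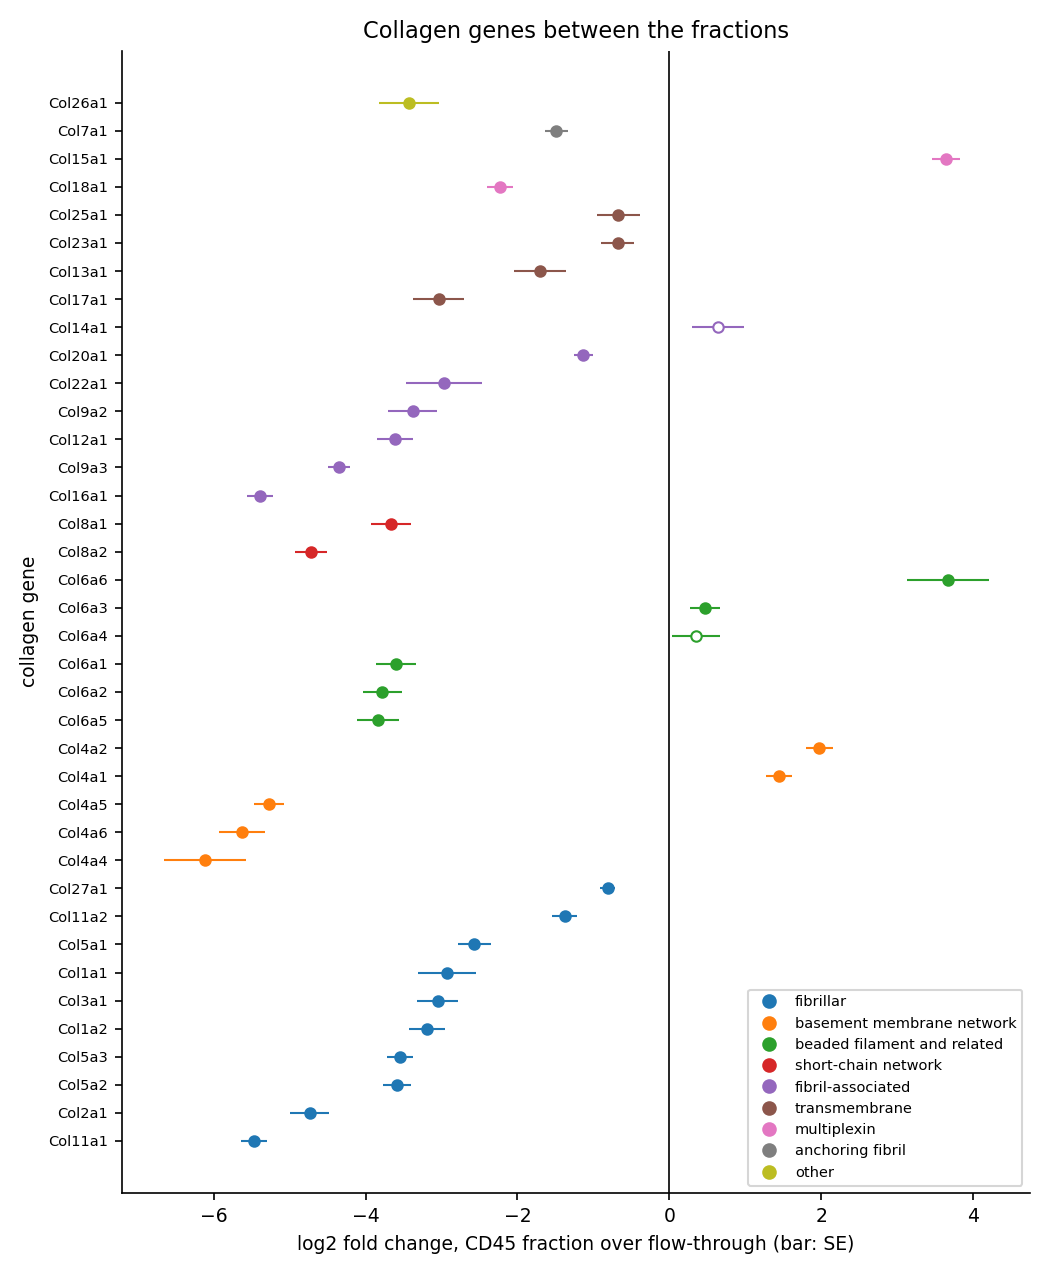
Log2 fold change of each tested collagen gene, CD45 fraction over flow-through, with its SE, grouped and coloured by collagen class. Filled points were called and open points were not. Col9a1 is not drawn because it had 0 counts in every CD45 library. The fibrillar genes lie left of 0, and the type IV chains split between Col4a2 at 1.98 and Col4a4 at -6.12.

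All 10 tested fibrillar genes were called lower in the CD45 fraction, where 44.7% of all genes were. Their log2 fold changes ran from -5.47 for Col11a1 to -0.81 for Col27a1, and Col2a1 passed the count filter in the flow-through alone. Col1a1, a chain of type I collagen, the main fibre of connective tissue, stood at 46.1, 65.8, 33.1 and 104 CPM in flow-through WT and 56.7, 49.4 and 64.9 CPM in flow-through KO. In the CD45 libraries Col1a1 stood at 3.25, 3.84 and 13.9 CPM in WT and 3.06, 3.30, 2.59 and 7.46 CPM in KO. The fractions did not overlap for Col1a1 (log2 fold change, log2FC, -2.93, SE 0.38, edgeR adjusted p = 6.57e-06). Its partner chain Col1a2 followed at -3.19 (SE 0.23, edgeR adjusted p = 7.86e-09). Col3a1, the single chain of type III collagen in vessel walls and soft tissue, ranged from 95.8 through a median of 148 to 208 CPM in the flow-through and from 8.32 through 9.38 to 23.2 CPM in CD45 (log2FC -3.05, SE 0.27, edgeR adjusted p = 1.01e-07). The chains of type V collagen, which sets fibre width, also had no overlap, with log2 fold changes of -2.57 for Col5a1, -3.59 for Col5a2 and -3.55 for Col5a3 (SE 0.21, 0.19 and 0.17).

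Among the fibrillar chains known from cartilage, Col11a1 held 43.4 to 51.8 CPM in the flow-through, with a median of 46.2, and 0.346 to 1.65 CPM in CD45, with a median of 0.617. That gave the most negative fold change of the fibrillar class (-5.47, SE 0.18, edgeR adjusted p = 3.49e-14). Col2a1, the chain of type II collagen, stood between 5.005 and 14.8 CPM in the flow-through and between 0.0824 and 0.396 CPM in CD45 (log2FC -4.74, SE 0.25, edgeR adjusted p = 2.44e-11). Col11a2 differed less, at -1.38 (SE 0.16), with 23.4 to 44.5 CPM in the flow-through and 6.65 to 12.97 CPM in CD45. Col27a1 ranged from 52.7 to 86.5 CPM and from 25.2 to 34.1 CPM in the same order (log2FC -0.81, SE 0.10, edgeR adjusted p = 9.87e-07). With a GC trend removed, Col27a1 and Col11a2 were no longer called (-0.09 and -0.23, edgeR adjusted p = 0.302 and 0.130).

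Of the 8 tested fibril-associated genes, 7 were called lower in the CD45 fraction, where 44.7% of all genes were. Among them, Col9a1, Col9a2 and Col22a1 passed the count filter in the flow-through alone. Col16a1 ranged from 364 through a median of 419 to 560 CPM in the flow-through and from 5.89 through 6.30 to 12.6 CPM in CD45 (log2FC -5.39, SE 0.17, edgeR adjusted p = 9.82e-14). Col12a1, which binds type I fibres, ranged from 103 to 222 CPM and from 4.20 to 11.95 CPM (log2FC -3.61, SE 0.24). Type IX collagen coats type II fibres in cartilage. Its Col9a3 chain held 34.7 to 55.6 CPM in the flow-through and 1.12 to 1.81 CPM in CD45 (log2FC -4.35, SE 0.14), and 6.07% of its exon length overlaps the opposite-strand gene Tcfl5. Col9a2 stood at 2.01 to 3.30 CPM in the flow-through and reached at most 0.357 CPM in CD45. Col9a1 had 143 counts over the flow-through libraries and 0 over the 158424224 counts of the CD45 libraries. Against the limit of 3 counts over that group, Col9a1 was at least 47.9-fold lower in CD45. Col14a1, also a type I fibre partner, overlapped between the fractions, at 1.81 to 9.11 CPM in the flow-through and 2.42 to 7.72 CPM in CD45 (log2FC 0.65, SE 0.34, edgeR adjusted p = 0.0894). Without flow-through WT replicate 4, the flow-through library highest in Col14a1, it was 0.84 (edgeR adjusted p = 0.0275). Of 21 alternatives, 19 left Col14a1 uncalled, and over all of them its change ran from 0.12 to 0.93.

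Type VI collagen forms beaded filaments around cells from the chains of Col6a1, Col6a2 and a longer chain, which may be that of Col6a3 or of its relatives Col6a4, Col6a5 and Col6a6. The shorter chains were both lower in CD45, whereas the longer chains were not alike: Col6a5 was lower as well, and the others were not. Col6a1 ranged from 98.1 through a median of 114 to 207 CPM in the flow-through and from 3.50 through 7.49 to 10.6 CPM in CD45 (log2FC -3.60, SE 0.26, edgeR adjusted p = 9.08e-09). Col6a2, its neighbour on chromosome 10, ranged from 107 to 199 CPM and from 2.59 to 9.87 CPM (-3.78, SE 0.26). Col6a3 had like levels in both, with 15.3 through 18.7 to 24.7 CPM in the flow-through and 11.9 through 17.1 to 27.8 CPM in CD45. Its fitted change was 0.47 (SE 0.19, edgeR adjusted p = 0.0341), but with total-count scaling it was -0.06 (edgeR adjusted p = 0.796), so its direction rests on the scaling. The call on Col6a3 was also lost without any of flow-through WT replicates 1 and 2, flow-through KO replicates 1 and 3, CD45 WT replicate 2 or CD45 KO replicates 2 and 4, with adjusted p from 0.0509 to 0.143.

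Col6a4, Col6a5 and Col6a6 lie in a row on chromosome 9, on the same strand, with 28810 bases between Col6a5 and Col6a4 and 27917 between Col6a6 and Col6a5. The levels of these neighbours differed in direction. Col6a5 passed the count filter in the flow-through alone and Col6a6 in CD45 alone, so their opposite calls are a description. Col6a5 was lower in CD45 (-3.83, SE 0.28, edgeR adjusted p = 1.25e-09), at 3.74 to 8.42 CPM in the flow-through and 0.0864 to 0.617 CPM in CD45. Col6a6 was higher, with 0 to 0.227 CPM in the flow-through, at most 5 counts in a library, and 0.309, 0.864 and 1.94 CPM as the lowest, median and highest CD45 values (3.67, SE 0.54, edgeR adjusted p = 8.79e-06). The fractions did not overlap for either, though Col6a6 is a rare transcript everywhere. Col6a4 was not called (0.35, SE 0.32, edgeR adjusted p = 0.311), and its change was -0.17 with total-count scaling.

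Type IV collagen is built from 6 chains in fixed partnerships: the chains of Col4a1 and Col4a2 form the sheet found under nearly every epithelium and endothelium, and the others form more restricted networks, as in kidney, for Col4a3, Col4a4 and Col4a5, or smooth muscle, for Col4a5 and Col4a6. The genes lie in head-to-head couples. Col4a1 and Col4a2 overlap by 22 bases at their starts on chromosome 8, Col4a4 and Col4a3 leave 71 bases between them on chromosome 1, and Col4a6 and Col4a5 leave 1308 on chromosome X. The sequence before the start is shown for Col4a4, Col4a5 and Col4a6, whose level in the CD45 libraries was close to 0, and for Col15a1, which was higher in CD45 than in the flow-through. It is the stretch of up to 250 bases before the RefSeq start (GRCm38.p6) that lies outside annotated exons, 5′ to 3′ on the gene's strand, and capitals mark a CCAAT box or a GC box (GGGCGG), on either strand.
Col4a4, chr1:82586850-82586920, minus strand, the whole stretch between Col4a4 and Col4a3: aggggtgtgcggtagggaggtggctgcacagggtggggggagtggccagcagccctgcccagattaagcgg
Col4a5, chrX:141475169-141475384, plus strand: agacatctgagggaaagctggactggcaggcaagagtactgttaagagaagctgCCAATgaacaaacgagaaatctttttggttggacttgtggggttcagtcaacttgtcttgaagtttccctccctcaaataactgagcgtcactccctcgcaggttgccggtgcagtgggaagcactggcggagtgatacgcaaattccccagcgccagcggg
Col4a6, chrX:141474077-141474326, minus strand: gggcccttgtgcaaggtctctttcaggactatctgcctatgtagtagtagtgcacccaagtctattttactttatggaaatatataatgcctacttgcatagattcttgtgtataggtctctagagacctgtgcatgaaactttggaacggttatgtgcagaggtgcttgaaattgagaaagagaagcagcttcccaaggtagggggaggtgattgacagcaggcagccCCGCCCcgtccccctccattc
Col15a1, chr4:47207762-47208011, plus strand: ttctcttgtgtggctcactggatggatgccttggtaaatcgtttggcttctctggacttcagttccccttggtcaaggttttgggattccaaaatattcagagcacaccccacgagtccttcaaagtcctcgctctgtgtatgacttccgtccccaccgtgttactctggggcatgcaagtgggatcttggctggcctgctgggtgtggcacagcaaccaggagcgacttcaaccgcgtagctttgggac

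The stretch between Col4a4 and Col4a3 is rich in G and C (69% of its bases), and the 3 others hold 47.6 to 53.6%. None of the 4 stretches holds TATAAA on either strand. RefSeq promoters were at hand for 35 of the 44 collagen genes, 38 in all. In the 250 bases before the start, GGGCGG was present on either strand in 57.9% of these 38 and in 32.7% of 32851 mouse promoters. CCAAT was present in 34.2% and 33.8%, and TATAAA in 13.2% and 12.4%. These are matches of letters and not binding sites.

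The head-to-head couples of type IV collagen were placed on opposite sides of the fractions. Col4a4 and Col4a6 passed the count filter in the flow-through alone, so their calls are a description. Col4a1 stood at 69.2, 76.4, 85.9 and 62.3 CPM in flow-through WT and 61.0, 51.2 and 80.5 CPM in flow-through KO. In the CD45 libraries Col4a1 stood at 127, 121 and 122 CPM in WT and 104, 218, 132 and 94.3 CPM in KO. The fractions did not overlap (log2FC 1.44, SE 0.17, edgeR adjusted p = 1.15e-06). Col4a2 stood at 31.4, 41.6, 43.7 and 31.1 CPM in flow-through WT and 36.3, 24.5 and 43.4 CPM in flow-through KO. In CD45 it stood at 98.9, 93.6 and 94.1 CPM in WT and 76.1, 155, 96.3 and 75.0 CPM in KO, again without overlap (1.98, SE 0.17, edgeR adjusted p = 4.70e-08). Col4a5 and Col4a6 had the opposite pattern. Col4a5 ran from 24.9 to 42.3 CPM in the flow-through and from 0.173 to 0.990 CPM in CD45 (-5.27, SE 0.19, edgeR adjusted p = 1.83e-13). Col4a6 ran from 16.3 to 28.3 CPM and from 0 to 0.911 CPM (-5.63, SE 0.30, edgeR adjusted p = 4.54e-11). Col4a4 was low in the flow-through, at 1.86 to 5.32 CPM, and had 0 counts in 5 of the 7 CD45 libraries (-6.12, SE 0.54, edgeR adjusted p = 1.78e-08). Col4a3 stood at 0.141 to 1.96 CPM in the flow-through and at 0 to 0.0638 CPM in CD45 and was not tested. Its highest library and that of Col4a4 was flow-through KO replicate 1.

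**Figure D3:**
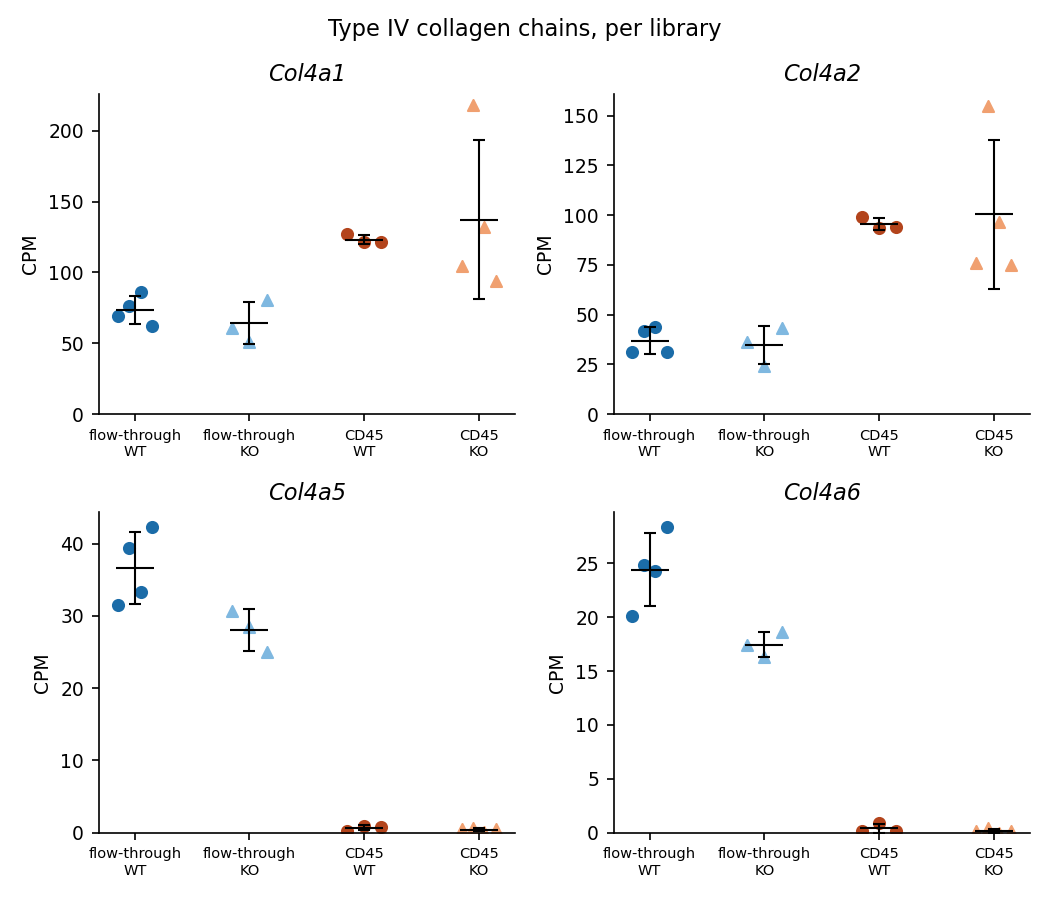
CPM of 4 type IV collagen genes per library in each group, with the group mean and SD as bars. Col4a1 and Col4a2 are higher in the CD45 groups, with CD45 KO replicate 2 at 218 and 155 CPM, and Col4a5 and Col4a6 are near 0 there.

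The multiplexins, basement membrane collagens whose ends are cut into short signalling peptides, were also split. Col15a1 had 0.937, 1.04, 1.33 and 1.10 CPM in flow-through WT and 1.27, 1.15 and 2.49 CPM in flow-through KO. In the CD45 libraries Col15a1 had 14.6, 11.6 and 10.7 CPM in WT and 9.09, 13.1, 9.94 and 12.9 CPM in KO. Each CD45 library was above each flow-through library (log2FC 3.64, SE 0.19, edgeR adjusted p = 1.36e-11). Col18a1, from which endostatin is cut, went the other way, at 51.3 to 58.2 CPM in the flow-through and 5.65 to 14.5 CPM in CD45 (-2.23, SE 0.17, edgeR adjusted p = 5.07e-09). Col18a1 was also the steadiest of the collagens above 1 CPM across the flow-through, its highest library being 1.13 times its lowest.

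The remaining classes were lower in CD45. The short-chain network genes Col8a1 and Col8a2, known from the corneal basement membrane and from vessels, had log2 fold changes of -3.67 (SE 0.27) and -4.72 (SE 0.21). Of the transmembrane collagens, Col17a1, a hemidesmosome protein of skin, had -3.04 (SE 0.34) and Col13a1, known from the neuromuscular junction, -1.70 (SE 0.34). Col23a1 differed less (-0.68, SE 0.22, edgeR adjusted p = 0.00973), and so did Col25a1, whose product is found in amyloid plaques (-0.67, SE 0.28, edgeR adjusted p = 0.0362). The Col25a1 call was lost without any 1 of flow-through WT replicates 1 and 4, flow-through KO replicate 1, CD45 WT replicates 1 and 2 and CD45 KO replicates 1, 2 and 3 (edgeR adjusted p from 0.0504 to 0.0987). With a GC trend removed neither gene was called (edgeR adjusted p = 0.177 for Col25a1 and 0.144 for Col23a1). Col7a1, the anchoring fibril of skin, had -1.49 (SE 0.15) and the fibril-associated Col20a1 -1.13 (SE 0.13), and the rare Col22a1 and Col26a1 had -2.96 (SE 0.50) and -3.43 (SE 0.40).

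Markers of cell types also differed between the fractions. Of 13 fibroblast and leptomeninges markers, 11 were lower and 1 higher in CD45 of the 12 tested. Their summed level was 91.5 to 247 CPM in the flow-through and 22.5 to 35.2 CPM in CD45, and Dpt, a fibroblast gene, was at 0 in 13 of the 14 libraries. Dcn, the fibre-coating proteoglycan decorin, which is also in the list of fibre-associated proteins, was lower (-2.22, SE 0.18, edgeR adjusted p = 1.41e-08). Of 14 endothelial markers, 13 were higher in CD45 and 1, Mfsd2a, lower. Their summed level was 700 to 903 CPM in CD45 and 317 to 463 CPM in the flow-through, although CD31 beads had been used on the cells. Slc2a1 alone ranged from 316 through a median of 369 to 391 CPM in CD45. In the flow-through it ranged from 179 through 228 to 303 CPM, so 1 gene held a large part of each sum. Pecam1, the gene of CD31, stood at 1.91 to 6.23 CPM in the flow-through and 131 to 178 CPM in CD45, and leukocytes and platelets carry CD31 too. Pericyte and smooth muscle markers were lower in 7, higher in 1 and not called in 5 of 13. The marker called higher was Acta2 (0.57, SE 0.10), with medians of 27.5 CPM in the flow-through and 27.8 CPM in CD45. Its change was close to the 0.53 set by TMM scaling. The astrocyte markers, which leukocytes should lack, summed to 7546 to 9250 CPM in the flow-through and 148 to 228 CPM in CD45, with a median log2FC of -5.53 over 10 genes. The median was -5.97 for oligodendrocyte, -6.10 for oligodendrocyte precursor and -5.13 for choroid plexus and ependyma markers. Of 8 oligodendrocyte precursor markers 7 were lower and 1, Vcan, was higher (1.74, SE 0.13). Col11a1, Col16a1, Col4a5 and Col4a6, at -5.27 to -5.63 and picked after their values were seen, lay among these medians and that of astrocytes. Other collagens lay outside them, such as Col2a1 (-4.74), Col8a2 (-4.72) and Col9a3 (-4.35). Col4a6 and Col2a1 passed the count filter in the flow-through alone. The medians of fibroblast and leptomeninges markers (-2.48) and of neuron markers (-2.70) were less negative. The part of these cell types in the collagen differences was not tested.

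In some libraries a high marker sum and a high collagen sum fell together within a fraction, and in others they did not. Flow-through WT replicate 4 had the highest fibroblast and leptomeninges sum (247 CPM, against 91.5 to 176 CPM in the other 6 flow-through libraries) and the highest fibrillar collagen sum (737 CPM, against 418 to 587). That library was the highest of the flow-through in Col1a1, Col1a2, Col3a1, Col6a1, Col6a2 and Col12a1. CD45 KO replicate 2 had the highest endothelial sum (903 CPM, against 700 to 777 CPM in the other 6 CD45 libraries) and the highest type IV sum (373 CPM, against 170 to 229). Flow-through KO replicate 1, highest in Col4a3, Col4a4 and Col9a1, had the highest sum of choroid plexus and ependyma markers, at 2054 CPM against 282 to 1045 CPM in the other 6. Ttr, the choroid plexus gene of transthyretin, ranged from 58.2 to 1730 CPM in the flow-through. Other libraries went against these matches. The highest fibrillar sums of CD45 were 97.7 CPM in WT replicate 3 and 88.1 CPM in KO replicate 4, where the fibroblast sums were 29.3 and 27.2 CPM, and the highest fibroblast sum of CD45 was 35.2 CPM in KO replicate 2, with a fibrillar sum of 64.2 CPM. Flow-through KO replicate 3 had the highest endothelial sum of its fraction at 463 CPM and a type IV sum of 169.6 CPM, below WT replicates 2 and 3 at 186 and 189.5 CPM. CD45 WT replicate 3, the highest CD45 library in Col1a1 and Col3a1, also stood apart in oligodendrocyte markers, at 1525 CPM against 398 to 966 CPM, and in monocyte and macrophage markers, at 3357 CPM against 4877 to 7723 CPM. These libraries stayed in the fits, and the part of the marker differences was not tested.

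**Figure D4:**
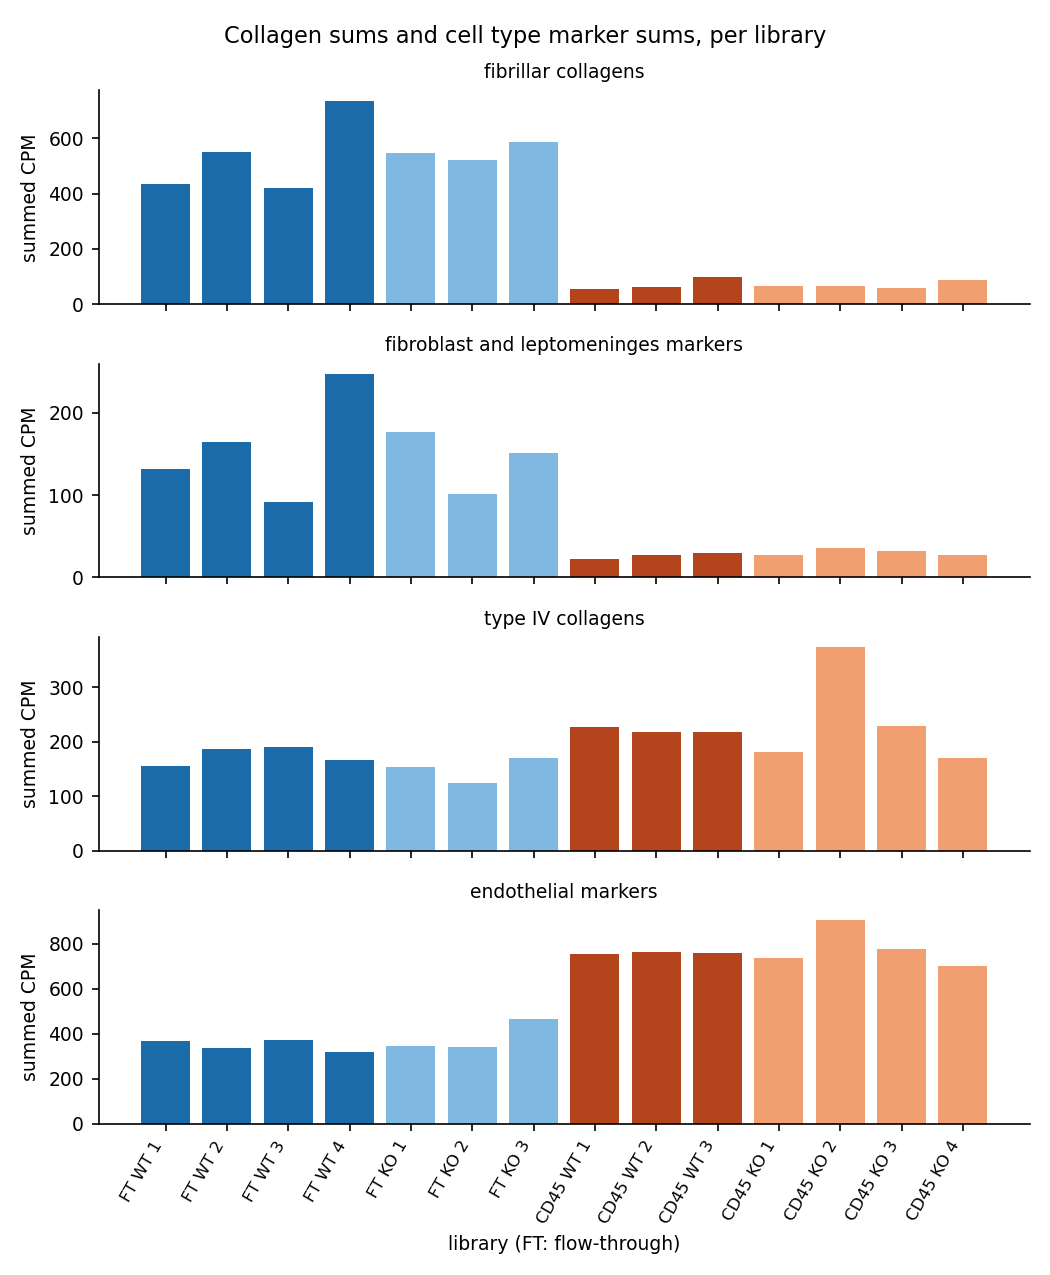
Summed CPM per library of the fibrillar collagens, the fibroblast and leptomeninges markers, the type IV collagens and the endothelial markers. Dark bars are WT and light bars KO, blue for flow-through (FT) and orange for CD45. The fibrillar and fibroblast sums both peak in flow-through WT replicate 4, at 737 and 247 CPM, and the type IV and endothelial sums in CD45 KO replicate 2, at 373 and 903 CPM.

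The genes that make, cut and bind collagen were split in the same comparison. Of 22 folding and modification enzymes, 11 were higher, 9 lower and 2 not called in CD45. The most abundant were P4hb, the disulfide isomerase that is also a subunit of prolyl hydroxylase (1.30, SE 0.06), Ppib, a prolyl isomerase (0.99, SE 0.08), and the lysyl hydroxylases Plod3 (0.36, SE 0.07) and Plod1 (1.49, SE 0.08), all called higher. In CPM, Plod3 had a median of 177 in the flow-through and 155 in CD45. Its change was smaller than the 0.53 set by TMM scaling, so its direction rests on the scaling. Serpinh1, the collagen chaperone HSP47, was lower (-1.87, SE 0.18, edgeR adjusted p = 9.53e-08), and so was Plod2, the lysyl hydroxylase of the chain ends (-3.42, SE 0.14). Both were picked after their values were seen. Of 15 processing and cross-linking genes, 14 were lower and 1 higher. Bmp1, the protease that removes the procollagen tail, was lower (-3.61, SE 0.11), as were Pxdn, the peroxidase that cross-links type IV collagen (-4.39, SE 0.19), and Lox, lysyl oxidase (-1.97, SE 0.19). The exception was Tgm2, a transglutaminase, at 45.0 to 95.9 CPM in the flow-through and 1598 to 2544 CPM in CD45 (5.50, SE 0.15, edgeR adjusted p = 6.1e-15).

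Of the 11 collagen receptors tested, 4 were higher, 6 lower and 1 not called in CD45. Ddr1, a receptor tyrosine kinase for collagen, was lower (-5.20, SE 0.13), and so was Adgrg1, an adhesion receptor for type III collagen (-1.96, SE 0.09). Mrc1, the macrophage mannose receptor, which binds collagen and is also in the macrophage marker list, was higher (10.15, SE 0.19). So was Itgb1, the integrin beta chain shared by the collagen-binding integrins (0.74, SE 0.07). In CPM, Itgb1 overlapped between the fractions, at 379 to 486 in the flow-through and 437 to 539 in CD45. Of 18 basement membrane partners, 10 were lower, 4 higher and 4 not called. Agrn, a heparan sulfate proteoglycan, was higher (1.12, SE 0.15), and Lamc1, a laminin chain, and Hspg2, perlecan, were lower (-0.69, SE 0.08, and -0.72, SE 0.19). Sparc, a collagen-binding glycoprotein, was not called (0.15, SE 0.07, edgeR adjusted p = 0.0762). Its median was 314 CPM in the flow-through and 236 CPM in CD45, so the sign of its change rests on the scaling. Of 14 fibre-associated proteoglycans and glycoproteins tested, 11 were lower and 3 higher. Thbs1, thrombospondin-1, and Fn1, fibronectin, were higher (8.69, SE 0.13, and 6.39, SE 0.22), and the matrix proteins Tnc and Prelp were lower (-4.13, SE 0.21, and -5.02, SE 0.13). These counts are read beside the 41.4% of all genes that were higher and 44.7% that were lower.

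Between KO and WT in the flow-through, none of the 38 collagen genes tested was called. Over all 16546 genes tested, 260 were called (1.57%), with 1.42% higher and 0.151% lower in KO. Of the 38, 15 had positive and 23 negative log2 fold changes, with a median of -0.04 against -0.01 over all genes, and 7 had an unadjusted p under 0.05, as 11% of all genes did. With DESeq2 3 of them were called, where 436 of all 16546 genes were. With no count filter 5 were called, where 629 of all 30364 genes were. The KO libraries lay below all WT libraries for 4 genes, Col2a1, Col4a5, Col4a6 and Col26a1, and above them for 0, where the shares over all genes were 6.78% and 5.19%, or 12% together. The neuron markers were the only cell type list with calls in this comparison, 3 higher and 1 lower of 12. No fibroblast, endothelial or pericyte marker was called.

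The smallest p among the collagens belonged to Col4a6, which stood at 20.1, 24.9, 24.3 and 28.3 CPM in WT and at 17.4, 16.3 and 18.7 CPM in KO. The groups did not overlap (log2FC -0.45, SE 0.11, edgeR adjusted p = 0.0724). Its head-to-head partner Col4a5 stood at 31.5, 39.3, 33.4 and 42.3 CPM in WT and at 30.6, 28.5 and 24.9 CPM in KO, again without overlap (-0.36, SE 0.11, edgeR adjusted p = 0.187). The change of Col4a6 was called by DESeq2 (adjusted p = 0.0194), with no filter (adjusted p = 0.0122 by edgeR), with a GC trend removed (0.0459) and without WT replicate 1 (0.0241). It was not called in the 11 others of 15 alternatives, with edgeR adjusted p up to 0.987. Over the 15, its change ran from -0.53 to -0.15. The starts of this couple are 1308 bases apart, and the stretches printed above lie at either end of that gap. By contrast, Col4a1 was at 62.3 to 85.9 CPM in WT and 51.2 to 80.5 CPM in KO and overlapped (-0.17, SE 0.15, edgeR adjusted p = 0.754).

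Col2a1 stood at 10.3, 10.9, 14.8 and 13.2 CPM in WT and 5.005, 9.11 and 7.96 CPM in KO, without overlap (log2FC -0.72, SE 0.20, edgeR adjusted p = 0.128). Col11a2 had the most positive change of the 10 genes chosen for this comparison, with 23.4, 34.2, 25.6 and 30.9 CPM in WT and 44.5, 32.8 and 44.4 CPM in KO (0.54, SE 0.13, edgeR adjusted p = 0.0760). Its KO replicate 2 lay among the WT values, and without that library the change was 0.66 (edgeR adjusted p = 0.0284). DESeq2 called both genes (adjusted p = 0.0205 for Col2a1 and 0.0171 for Col11a2). Of 15 alternatives, 13 left Col2a1 and 12 left Col11a2 uncalled. Col9a3 stood at 37.2, 51.2, 34.8 and 34.7 CPM in WT and 54.1, 43.3 and 55.6 CPM in KO and overlapped through WT replicate 2 (0.40, SE 0.14, edgeR adjusted p = 0.263). Col26a1, a little studied collagen named here after its values were seen, stood at 2.30, 2.75, 2.52 and 3.33 CPM in WT and 1.64, 2.19 and 1.80 CPM in KO (-0.52, SE 0.22, edgeR adjusted p = 0.400).

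The flow-through collagens of highest RPKM were not called either. Col16a1 was at 364, 560, 386 and 442 CPM in WT and 408, 419 and 493 CPM in KO (log2FC 0.04, SE 0.13, edgeR adjusted p = 0.949). Col6a1 was at 113, 129, 98.1 and 207 CPM in WT and 102, 128 and 114 CPM in KO (-0.22, SE 0.22, edgeR adjusted p = 0.781), and Col6a2 had -0.31 (SE 0.16, edgeR adjusted p = 0.542). Col3a1 was at 115, 126, 95.8 and 208 CPM in WT and 167, 148 and 160 CPM in KO (0.25, SE 0.22, edgeR adjusted p = 0.750). WT replicate 4, the library with the highest fibroblast marker sum, was the highest WT library in Col6a1, Col6a2 and Col3a1. Without it Col3a1 was called higher in KO (0.51, edgeR adjusted p = 0.0364) and Col6a1 stood at 0.03 (edgeR adjusted p = 0.968).

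**Figure D5:**
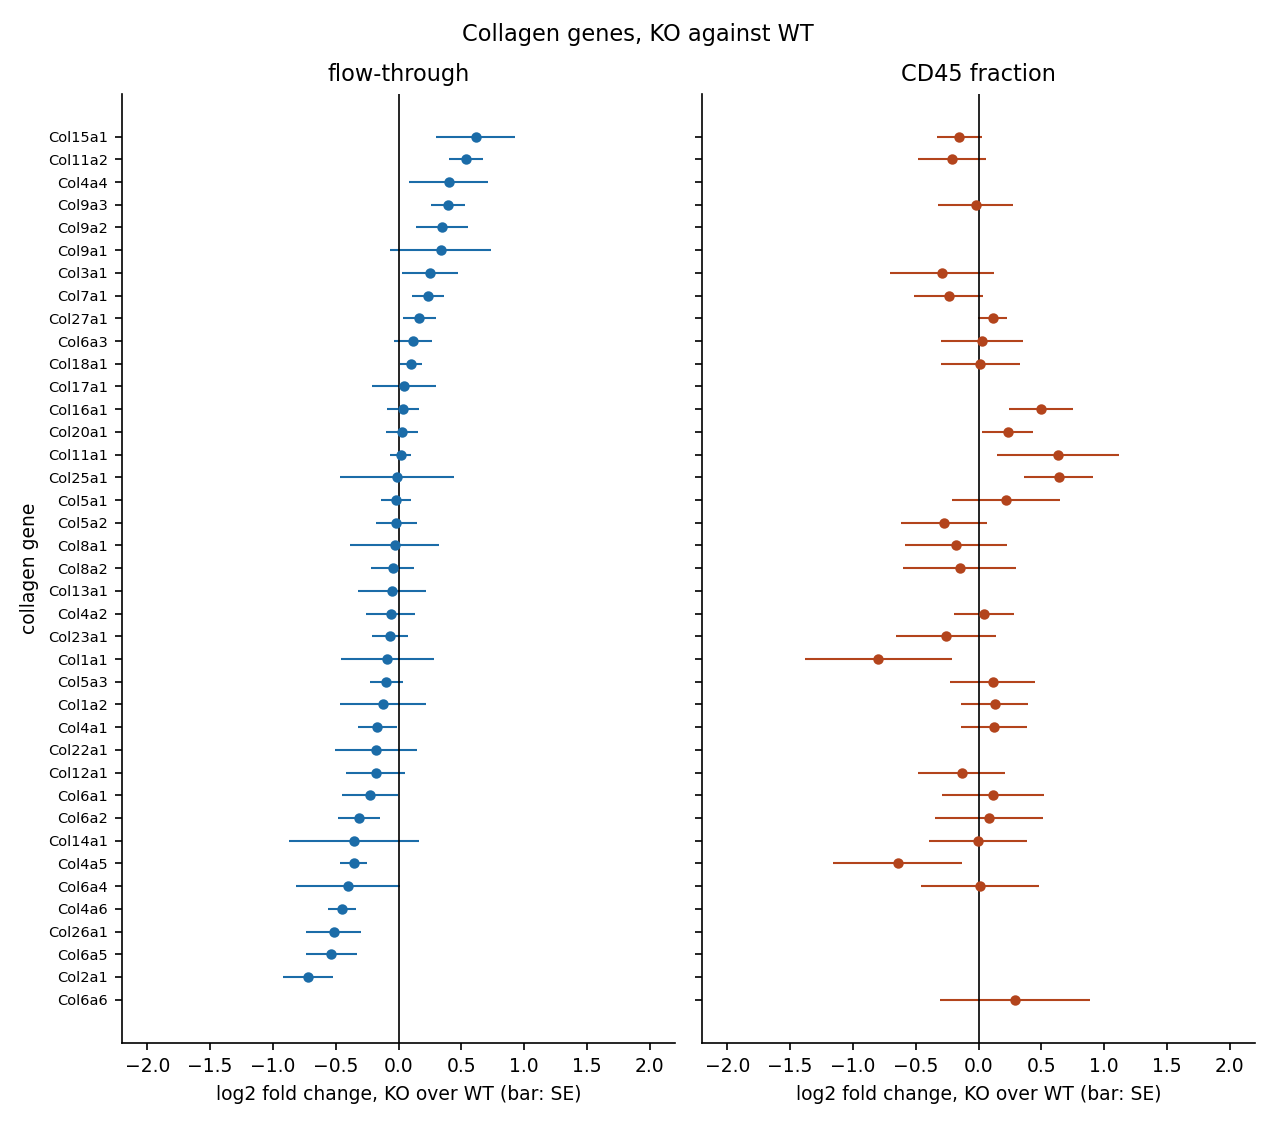
Log2 fold change of each tested collagen gene, KO over WT, with its SE, in the flow-through (left) and the CD45 fraction (right), ordered by the flow-through value. No gene was called in either fraction, and the flow-through values run from -0.72 for Col2a1 to 0.62 for Col15a1. A gene without a point was under the count filter in that fraction.

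Between KO and WT in the CD45 fraction, none of the 29 collagen genes tested was called by edgeR or DESeq2. Over all 15660 genes tested, edgeR called 0 (0%) and DESeq2 10, and 693 (4.43%) had an unadjusted p under 0.05, among them 1 collagen gene. Of the 29, 16 had positive and 13 negative changes, with a median of 0.01 against 0.02 over all genes. That gene was Col25a1, the only collagen whose groups did not overlap. It stood at 1.07, 1.43 and 1.66 CPM in WT and 2.04, 2.23, 2.07 and 2.47 CPM in KO (log2FC 0.64, SE 0.28, edgeR adjusted p = 0.974). Over all genes, KO lay above WT for 2.92% and below for 2.16%, or 5.09% together.

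The leading CD45 collagens overlapped between the genotypes. The Col4a1 and Col4a2 values given above yielded changes of 0.12 (SE 0.26) and 0.04 (SE 0.24), and without KO replicate 2 these were -0.18 and -0.23 (edgeR adjusted p = 0.999 for each). Col27a1 stood at 25.2, 27.8 and 31.5 CPM in WT and 33.2, 29.6, 27.4 and 34.1 CPM in KO (0.11, SE 0.12), and Col15a1 had -0.15 (SE 0.18). Col6a3 ranged from 12.02 to 27.8 CPM in WT and from 11.9 to 27.4 CPM in KO (0.02, SE 0.33), and Col6a1 from 3.50 to 9.29 and from 4.69 to 10.6 CPM (0.12, SE 0.40). Col16a1 stood at 5.89, 6.30 and 5.94 CPM in WT and 5.90, 9.46, 6.74 and 12.6 CPM in KO (0.50, SE 0.26). Col1a1 had -0.80 (SE 0.58), and WT replicate 3 at 13.9 CPM held it apart: without that library the change was 0.20. Col11a1 had 0.63 (SE 0.49) at levels of 0.346 to 1.65 CPM. The adjusted p of these 9 genes by edgeR lay between 0.974 and 0.996.

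The difference between fractions in the KO change was not called for any of the 39 collagen genes tested, and for none of all 18098 (0%), by edgeR. DESeq2 called 46 genes, of which 0 were collagens, and 1305 genes (7.21%) had an unadjusted edgeR p under 0.05. Of the 39 collagen genes, 2 did. Col11a2, positive in the flow-through and negative in CD45, had a difference of -0.77 (CD45 minus flow-through, SE 0.32, edgeR adjusted p = 0.674). Col15a1 had -0.80 (SE 0.36, edgeR adjusted p = 0.675), from 0.62 (SE 0.31) in the flow-through and -0.15 in CD45.

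None of the partner genes of collagen was called between KO and WT in either fraction, where 1.57% of all genes were called in the flow-through and 0% in CD45. In the flow-through the genes tested were 22 folding enzymes, 15 processing genes, 11 receptors, 18 basement membrane partners and 14 fibre-associated proteins. The smallest adjusted p was that of Tgm2 (-0.53, SE 0.14, edgeR adjusted p = 0.0889). In CD45 the numbers tested were 22, 12, 11, 17 and 13, and each adjusted p was 0.974 or higher.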

How the data were processed

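Bulk RNA of cells from injured mouse cortex was sequenced in 15 libraries, prepared, per the labels' protocols, by a strand-keeping mRNA kit with 14 cycles of PCR. The authors deposited raw gene counts in 1 table per fraction, and these counts were used. The authors also deposited normalized tables, read here as a signal: counts divided by 1 factor per library, checked against the raw counts and otherwise not used. Per the submitters' processing notes, Trim Galore, FastQC, STAR 2.7.9a, DESeq2 and GRCm38 were used. Not given in the sources used here are the counting program, whether it used strand, and the annotation, so reads of genes overlapping on opposite strands cannot be told apart.

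Names, positions and exon lengths came from GENCODE M21 (GRCm38), which matched 33130 of 33223 genes. Levels are CPM over all counts of a library, and RPKM is CPM per kilobase of exon. Tests used edgeR 4.0.16 in R 4.3.3, with TMM scaling, the robust form of the quasi-likelihood test and the filterByExpr rule. That rule asks for a level of about 10 counts in as many libraries as the smallest group holds, not in each library, and for 15 counts over all. Each SE is the absolute log2 fold change over the square root of F. P-values were adjusted by Benjamini-Hochberg over all genes and called under 0.05. Genotypes were fitted within a fraction, and fractions and the interaction with 1 mean per group over 14 libraries. The procedure was tested on simulated data.

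Alternatives were DESeq2 1.42.0, upper-quartile scaling, no filter, a mean of at least 1 CPM, removal of a GC trend, a joint fit, each library left out, and the left-out library entered as labelled. Total-count scaling was added after seeing the data. Chi-square per degree of freedom between replicates was 10.2 to 55.2 over 18 pairs, above sampling noise, so no library was treated as deposited again. The members and lists were chosen with earlier results of these data known. Each genotype comparison names called members, the 6 highest in RPKM in that fraction, and members of smallest p up to 10. In the fraction comparison any tested member may be named, and each list gives up to 4 genes, those called between genotypes first and then those of highest mean count, whatever their call between fractions. The promoters and motifs shown were chosen after values were seen.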

Additional observations from a re-analysis of the deposited data

Results flagged for a closer look

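Collagen genes were examined in both groups of 4 libraries, flow-through WT and CD45 KO, which gave 67 combinations of gene and group. In 5 of them 1 library stood far from the rest of its group, and chance flags about 1 in 20. In flow-through WT, Col9a3 was at 51.2 CPM in replicate 2 against 34.7 to 37.2 CPM in the others, and Col17a1 at 1.73 CPM in replicate 1 against 2.95 to 3.20 CPM. In CD45 KO, replicate 4 stood high in Col1a1, at 7.46 CPM against 2.59 to 3.30 CPM, and in Col11a2, at 12.97 CPM against 6.65 to 7.60 CPM. Col5a1 was low in CD45 KO replicate 1, at 1.28 CPM against 2.16 to 2.32 CPM.

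The library labelled as flow-through WT but deposited with the CD45 libraries was above every fitted flow-through WT library in 4 collagen genes that were higher in CD45. It held 159 CPM of Col4a1, 116 CPM of Col4a2, 9.92 CPM of Col15a1 and 1.10 CPM of Col6a6. Of the 39 collagen genes tested between the fractions, its level was within the range of the CD45 libraries for 33 and of the flow-through libraries for 3. It entered no fitted comparison.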

How the results depend on the processing

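In the flow-through, KO against WT gave 260 called genes and 0 collagens. DESeq2 gave 436 of 16546 genes and 3 collagens (Col4a6, Col11a2 and Col2a1), and no filter 629 of 30364 genes and 5 collagens (these, Col9a3 and Col4a5). The joint fit gave 30 of 18098 genes and 0 collagens, and entering the left-out library as labelled gave 0 of 16656 genes and 0 collagens. With a GC trend removed 181 of 16546 genes and 1 collagen were called (Col4a6). Leaving out 1 library gave 134 to 287 genes, with 134 without KO replicate 1, 144 without WT replicate 2, 159 without WT replicate 3 and 163 without KO replicate 2. It gave 0 to 1 collagens, namely Col4a6, Col3a1 or Col11a2 without WT replicate 1, WT replicate 4 or KO replicate 2. The change of Col16a1 was -0.11 with a GC trend removed and -0.0478 to 0.17 with a library left out. That of Col6a1 was 0.0644 with the left-out library as labelled and -0.34 to 0.0297 with a library left out.

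In CD45, KO against WT gave 0 genes, 10 by DESeq2 and 0 to 1 with a library left out (1 without KO replicate 1). Changes with a library left out ran from -0.18 to 0.26 for Col4a1, -0.23 to 0.15 for Col4a2, -0.20 to 0.43 for Col6a1, -0.22 to 0.40 for Col6a3 and -1.27 to 0.20 for Col1a1. The interaction gave 0 genes, 46 by DESeq2, 15 with no filter and 0 to 2 with a library left out (2 without CD45 WT replicate 2 or 3, 1 without CD45 KO replicate 1).

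Between fractions, total-count scaling, added after seeing the data, turned Col6a3 to -0.0561 and Col6a4 to -0.17. Over all settings 33 to 37 collagens were called. Of 814 values of single collagens, 787 kept direction and side of the threshold, 23 lost and 2 gained the call. The causes were not tested. No paired analysis was possible because replicate numbers follow accession order and pair nothing. Without named animals, p-values measure spread between libraries, and 3 or 4 libraries a group limit what small changes can pass.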
